A study of Mus musculus with 9 samples.

Results

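Cytosolic ribosomal protein genes were followed in the mouse uterus after conditional deletion of Wnk1, a kinase that controls ion transporters and cell signalling. Genes were taken by symbol (Rpl or Rps with a number and at most 1 letter, Rplp0 to Rplp2, and Rpsa) where the mean FPKM, fragments per kilobase of transcript scaled to all mapped fragments, was above 1 over all libraries. Of 31274 entries, 81 had such a symbol and 78 passed, 46 of the large and 32 of the small ribosomal subunit. The values concern whole uteri collected on day 4.5 of pseudopregnancy, the time at which the uterus is receptive to an embryo, with 1 library per mouse. The control group was 4 C57BL/6 mice labelled Wnk1f/f, with both Wnk1 alleles floxed. The other group was 5 C57BL/6 mice labelled Wnk1d/d, the same floxed alleles with Cre placed at the progesterone receptor gene, so that exon 2 was cut out in cells that express this receptor. Immune and endothelial cells lack the receptor and keep Wnk1. All mice had been mated to vasectomized males, so no embryo was present in either group. The number of reads behind each library is not known from FPKM, and no counting interval can be given.

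A ribosome joins a large and a small subunit, each built from ribosomal RNA and a set of proteins, most of them present in 1 copy per ribosome. Because the proteins are needed in equal numbers, their genes are usually transcribed at high and matched levels in every dividing or secreting cell. Their mRNAs begin with a run of pyrimidines, the terminal oligopyrimidine or TOP tract, through which mTOR signalling and LARP1 control their translation, so that mRNA level and protein output need not move together. In the uterus at this time, progesterone and oestrogen prepare the epithelium and the stroma for implantation.

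Runs of pyrimidines can be looked for around the annotated starts. A run near a start need not begin the mRNA, so it is not by itself a TOP tract. RefSeq promoter sequence (build GRCm38.p6) was found for 57 of the member genes, with 68 starts. A run of at least 8 C or T bases lay between 10 bases before and 20 after 33.8% of these starts, against 11.2% of 32851 starts of all genes. The 30-base windows below, with the longest such run in capitals, show 4 starts with a long run (Rpl35, Rpl27a, Rps6, Rps9), and the starts of genes whose values are described further on (Rpl12, Rps13, Rps7, Rplp0 and the first of the pair listed for Rps27l).
Rpl35, chr2:39005112-39005141, minus strand: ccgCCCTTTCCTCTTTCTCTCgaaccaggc
Rpl27a, chr7:109519185-109519214, plus strand: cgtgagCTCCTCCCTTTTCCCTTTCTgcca
Rps6, chr4:86857348-86857377, minus strand: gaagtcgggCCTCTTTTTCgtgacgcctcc
Rps9, chr7:3704031-3704060, plus strand: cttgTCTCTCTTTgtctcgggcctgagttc
Rpl12, chr2:32961702-32961731, plus strand: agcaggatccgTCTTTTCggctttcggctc
Rps13, chr7:116334171-116334200, minus strand: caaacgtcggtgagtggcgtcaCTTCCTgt
Rps7, chr12:28635934-28635963, minus strand: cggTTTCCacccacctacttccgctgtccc
Rplp0, chr5:115559457-115559486, plus strand: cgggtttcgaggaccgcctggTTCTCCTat
Rps27l, chr9:66946076-66946105, plus strand: CCTCCCCgccgcctctatcccggaagttgc
The runs of these 9 windows were 18 bases at Rpl35, 20 at Rpl27a, 10 at Rps6, 9 at Rps9, 7 at Rpl12, 6 at Rps13, 5 at Rps7, 7 at Rplp0 and 7 at Rps27l. Those of Rps7 and Rps27l lie wholly within the 10 bases before the annotated start, and those of Rpl12, Rps13 and Rplp0 begin after it.

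Over the longer window from 250 bases before to 50 after a start, read on both strands, CTTTCC was found at 50% of the member starts and 26.6% of all starts. The letters CCGGAAG, which hold the core that ETS factors such as GABPA recognise, were found at 36.8% of member starts against 8.86% of all starts. TATAAA, the usual TATA box, was found at 8.82% of member starts against 13.6%. A match describes these letters only, and a RefSeq start need not be the start used in the uterus.

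Wnk1 itself was checked first. It stood at 44.9, 43.4, 47.3 and 45.5 FPKM in the Wnk1f/f libraries and at 33.9, 29.9, 31.0, 30.2 and 31.3 FPKM in the Wnk1d/d libraries. Every Wnk1d/d library was below every control, with a log2 fold change of -0.52 (SE 0.06, limma, adjusted p = 0.00167 over all genes tested). Median log2 levels of the 14728 genes tested lay between 3.79 and 3.82 in all libraries, and in Wnk1d/d 4 a single entry took 70.3% of the summed FPKM. Smooth muscle markers were higher in Wnk1d/d for 8 of 8 genes tested, with a summed level of 2989.9 to 6728 FPKM in Wnk1f/f and 7537 to 14185 in Wnk1d/d. Endothelial markers were lower for 5 of 6, with sums of 364 to 403 against 144 to 297. Of 6 stromal markers, 3 were higher (Lum, Col1a1 and Col3a1) and 2 lower (Pdgfra and Hand2), with sums of 1489 to 1963 against 1999 to 2607. Wnk1f/f 4 also held liver transcripts, with Alb at 77.7 FPKM where the other libraries had at most 1.5, and a sum of 158 over 6 liver genes. The part of these shifts in the values below was not tested, and in whole tissue fewer cells of a type and less RNA per cell cannot be told apart.

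The libraries numbered 2 stood apart for these genes and did so in opposite directions. Relative to each gene's own mean over the 9 libraries, the median log2 deviation of the 78 genes was 0.15, 0.26, -0.01 and -0.05 in Wnk1f/f 1 to 4. It was -0.04, -0.24, -0.06, 0.05 and -0.05 in Wnk1d/d 1 to 5. Wnk1f/f 2 held the highest value of 51 of the 78 genes and Wnk1d/d 2 the lowest value of 62. The other libraries of both groups overlapped. The summed FPKM of the 78 genes was 31303 ± 3712 (SD, n = 4) in Wnk1f/f, from 27721 to 35655, and 28558 ± 2308 (SD, n = 5) in Wnk1d/d, from 25349 to 31778.

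**Figure D1:**
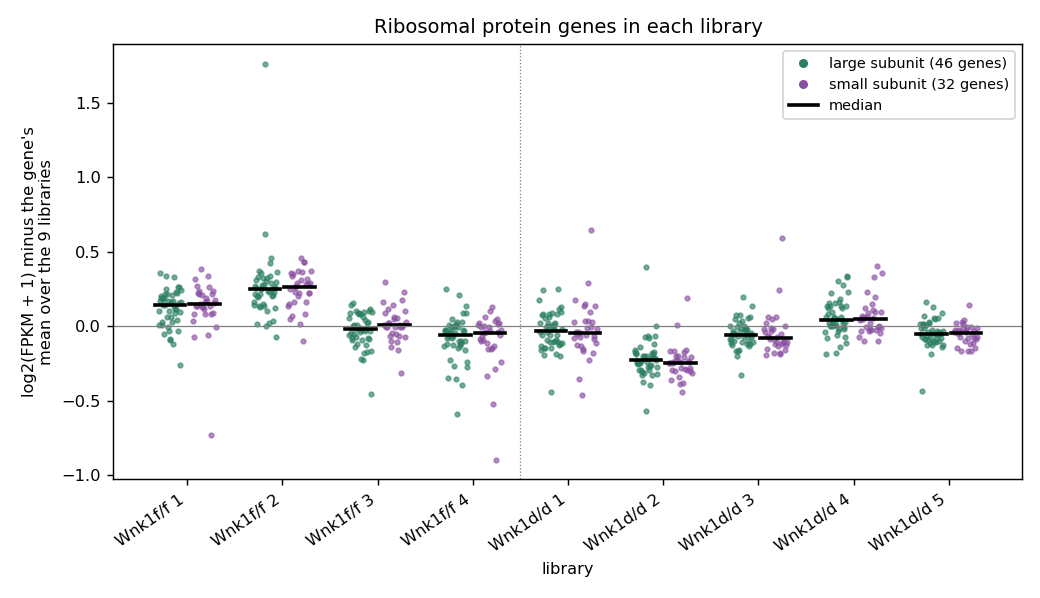
Each point is 1 ribosomal protein gene in 1 library, as log2(FPKM + 1) minus that gene's mean over the 9 libraries, with large subunit genes in green, small subunit genes in purple and a black bar at the median of each subunit. The 2 subunits sit side by side in every library, highest in Wnk1f/f 2 and lowest in Wnk1d/d 2, and the single point near the top is Rpl30 in Wnk1f/f 2.

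The genotype difference over the whole family was small and mostly of 1 sign. The log2 fold change of Wnk1d/d over Wnk1f/f on log2(FPKM + 1) was below 0 for 70 of 78 genes (89.7%), against 49.5% of all 14728 genes tested. The median was -0.16, against 0.003 over all genes tested. The sign of both subunits' medians held under median scaling and quantile normalization, but neither could readily have reversed it. Library medians were already 3.79 to 3.82, so median scaling changed little (-0.13 for the large and -0.16 for the small subunit). Quantile normalization sets the libraries' upper levels equal, and these were higher in Wnk1d/d. It thus tends to lower genes of high level there (-0.24 and -0.30). Centring each library on the member genes, which by construction sets their typical difference near 0, moved the median of all genes to 0.16. It gives no check of the shift either. Without Wnk1f/f 2 the number below 0 was 62, without Wnk1d/d 2 it was 64, and with both left out, a choice made after their values were seen, it was 56. Without Wnk1f/f 4 it was 74, with 0 members called higher and 4 lower (Rpl11, Rpl12, Rps13 and Rps7). With both libraries numbered 2 left out the median was -0.03 for the large and -0.08 for the small subunit.

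Few single genes passed the test. With limma and Benjamini-Hochberg adjustment over all genes tested, 1 member was higher in Wnk1d/d (Rps4l) where 11.1% of all genes were, and 3 were lower (Rpl12, Rps13 and Rps7) where 11% of all genes were. The members' shares were 1.28% and 3.85%. At an unadjusted p under 0.05 there were 3 higher, where 19.7% of all genes were, and 16 lower, a share close to the 18.8% of all genes. Only Rps4l also differed by 1.5-fold or more in mean FPKM, a step that 10.3% of all genes passed. In 5 genes every Wnk1d/d library was below every Wnk1f/f library (among them Rpl12, Rps7, Rps4x and Rpl4, the last named after its values were seen) where 10.6% of all genes did so, and in 0 genes was every Wnk1d/d library above, where 9.27% did. The counts for single calls depended on the scaling. Quantile normalization gave 1 higher and 40 lower, and median scaling 1 higher and 1 lower. Centring on the member genes gave 4 higher (Rpl34, Rplp0, Rps27l and Rps4l) and 0 lower. Of the 14728 genes tested, these settings called 3311, 3169 and 2746 in that order, both directions together, against 3249 in the main fit. The 99th percentile of log2 values, which quantile normalization sets equal, was 8.39 to 8.57 in Wnk1f/f and 8.57 to 8.76 in Wnk1d/d.

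**Figure D2:**
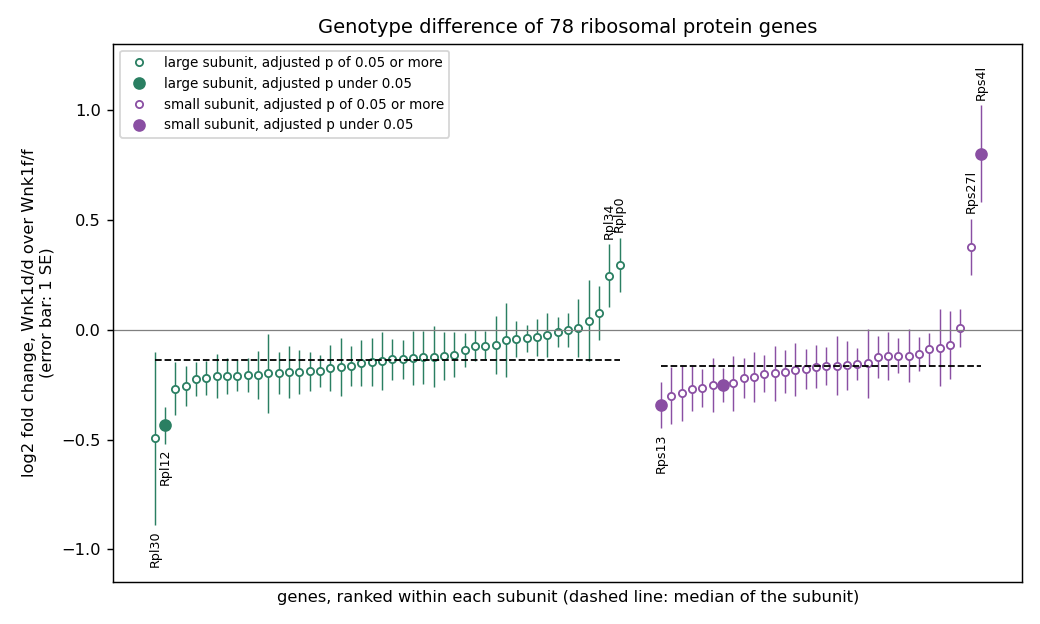
Log2 fold changes of the 78 genes, Wnk1d/d over Wnk1f/f, ranked within the large subunit (green, left) and the small subunit (purple, right), with 1 SE as the error bar, filled points for an adjusted p under 0.05 and a dashed line at each subunit's median. Both subunits lie below 0 with medians of -0.14 and -0.17, and Rps4l stands highest at 0.80.

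Large and small subunit genes did not separate by genotype. The large subunit had 41 of 46 genes below 0, with a median log2 fold change of -0.14, and 1 of them (Rpl12) passed the test. The small subunit had 29 of 32 below 0, with a median of -0.17, and 3 passed (Rps13 and Rps7 lower, Rps4l higher). In levels, the median log2(FPKM + 1) of the large subunit genes minus that of the small subunit genes was -1.25, -0.99, -1.14 and -1.16 in Wnk1f/f 1 to 4. It was -1.32, -1.11, -1.20, -1.24 and -1.16 in Wnk1d/d 1 to 5. The means were -1.13 ± 0.11 (SD, n = 4) and -1.21 ± 0.08 (SD, n = 5), a difference of -0.07 that was smaller than the spread in either group.

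The levels themselves were far from equal. Mean FPKM over the 9 libraries ran from 7.16 for Rpl34 to 3931 for Rpl41, a ratio of 549, with a median of 113 over all members, 77.6 for the large and 173 for the small subunit. Rpl41 encodes the smallest ribosomal protein. Above 1000 FPKM were 8 genes, 4 of each subunit, and under 20 FPKM were 6. The 3 highest of the large subunit were Rpl41, Rpl8 (1912) and Rplp1 (1356), and among the highest of the small subunit were Rps9 (3067) and Rps15 (1792). The 3 lowest of the large subunit were Rpl34, Rpl9 (16.4) and Rpl21 (16.7), and of the small subunit Rps15a (13.4), Rps4l (25.5) and Rps29 (26.3).

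These levels were lower for genes with more pseudogene copies in the genome. Ribosomal protein mRNAs have left many reverse-transcribed copies in mammalian genomes, and a read that matches several places is hard to assign. GENCODE M21 held 536 pseudogenes at 95% identity or more over at least 90% of a member's coding sequence, for 77 members with an annotated coding sequence. The 13 genes with at most 1 such copy had a median mean FPKM of 399, the 48 with 2 to 9 copies 104, and the 16 with 10 or more 64.1. Over these 77 genes, which share libraries and are not independent, Spearman's rho was -0.53 between copies and mean FPKM but 0.08 between copies and the log2 fold change. The median log2 fold change was -0.16, -0.17 and -0.12 in the 3 classes. Rpl21 had 55 copies and stood at 16.7 FPKM. Rpl8, near the top of the range, had 0.

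**Figure D3:**
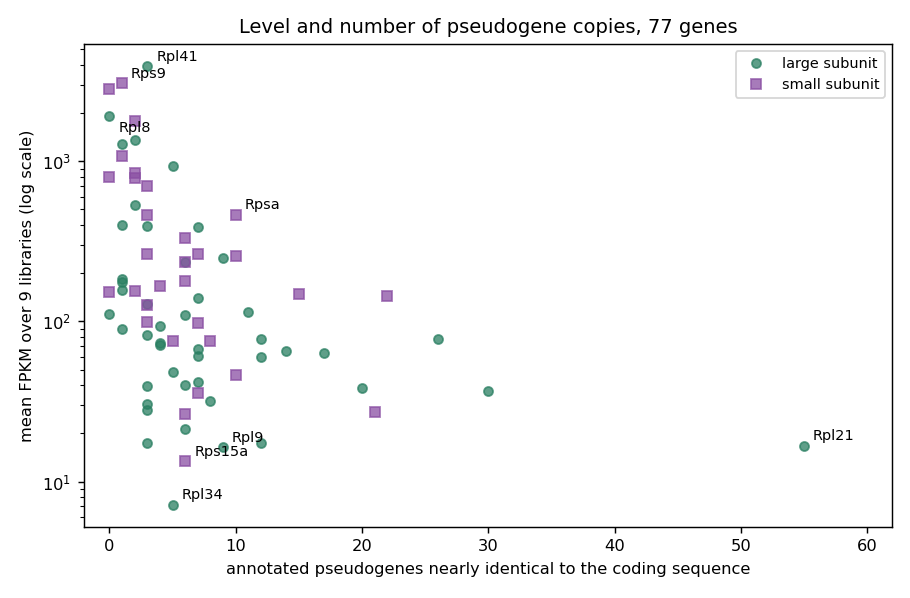
Mean FPKM over the 9 libraries (log axis) against the number of annotated pseudogenes nearly identical to the coding sequence, for 77 ribosomal protein genes of the large (circles) and small (squares) subunit. Genes above 1000 FPKM have at most 3 copies, and Rpl21, with 55, lies at 16.7 FPKM.

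Of 11 nearly identical copies found in GENCODE M21 with a row of their own in the table, 4 had a mean above that of the gene itself and 7 a mean below it. Rpl14-ps1 (98.9% identical to Rpl14) had a mean of 865 FPKM where Rpl14 had 399. Rps15a-ps6 and Rps15a-ps4 had 62.3 and 25.4 FPKM where Rps15a had 13.4, and BC004004 had 29.4 where Rpl21 had 16.7. Below their gene were, for example, Rpl31-ps12 at 45.7 FPKM where Rpl31 had 77.7, and Gm6654 at 38.7 where Rps26 had 464. An entry named Rplp2-ps1, not among the 11, had means of 1074 FPKM in Wnk1f/f and 1002 in Wnk1d/d. Rplp2 itself had 118 and 105. How reads were divided between a gene and its copy is not known from FPKM, and the low values of Rpl34, Rpl9, Rpl21 and Rps15a are values of these entries, not of the proteins' mRNA as a whole. The log2 fold changes of the copies were -0.12 (SE 0.08) for Rpl14-ps1, -0.09 (SE 0.12) for Rps15a-ps6, -0.20 (SE 0.10) for Rps15a-ps4 and 0.12 (SE 0.08) for BC004004, none past the threshold.

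The ribosomal stalk and the 5S particle hold the large subunit member that differed most clearly. Rpl12 encodes uL11, which sits at the base of the stalk where elongation factors bind. It was at 27.2, 24.6, 23.4 and 25.2 FPKM in Wnk1f/f and at 18.7, 18.4, 19.4, 19.9 and 15.3 FPKM in Wnk1d/d. The groups did not overlap, and Wnk1d/d 5 was the lowest library. Mean FPKM was 25.1 ± 1.63 (SD, n = 4) against 18.3 ± 1.78 (SD, n = 5), a log2 fold change of -0.44 (SE 0.08, limma adjusted p = 0.00877), and 0.00794 was the exact two-sided permutation p, the smallest that 4 against 5 libraries allow. The call held without each library in turn and with both libraries numbered 2 left out. It was lost under centring on the member genes (limma adjusted p = 0.153) and with a replicate block. GENCODE places Rpl12 at chr2:32961559-32965345 on the plus strand, with 7 exons and 6 pseudogene copies.

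Rplp0 encodes uL10, which anchors the stalk on the same base as uL11. Its values were 324, 369, 283 and 427 FPKM in Wnk1f/f and 416, 388, 426, 488 and 414 in Wnk1d/d. Only Wnk1f/f 4 reached the Wnk1d/d range. The log2 fold change of 0.29 (SE 0.12) did not pass (limma adjusted p = 0.112, exact permutation p = 0.0635), and its sign was opposite to that of Rpl12. Rplp1 and Rplp2, the acidic proteins that form the mobile arms of the stalk, had log2 fold changes of -0.05 (SE 0.17) and -0.17 (SE 0.13).

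Rpl5 and Rpl11 bind 5S ribosomal RNA and, when free of the ribosome, can bind MDM2 and hold back the breakdown of p53. Rpl5 was at 48.6 ± 1.01 FPKM (SD, n = 4) in Wnk1f/f and 47.7 ± 5.77 (SD, n = 5) in Wnk1d/d, a log2 fold change of -0.03 (SE 0.08). Rpl11 was at 45.2, 48.4, 42.7 and 39.2 FPKM against 40.6, 35.1, 37.5, 35 and 38.6. Only Wnk1d/d 1 reached into the control range, and the log2 fold change of -0.22 (SE 0.08) had an adjusted p of 0.0598. Of the 6 stalk and 5S genes, 1 was lower (16.7%, against 11% of all genes) and 0 were higher (against 11.1%). In 5 the log2 fold change was below 0, with a median of -0.11 over the 6, against -0.16 over all 78 members.

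At the exit tunnel, where the growing chain leaves the large subunit, 8 of 8 genes had a log2 fold change below 0. Their median was -0.13. Over the whole family 89.7% of genes were below 0, with a median of -0.16. By limma 0 of the 8 passed, where 11.1% of all genes were called higher and 11% lower. At an unadjusted p under 0.05 there were also 0, where 19.7% of all genes were higher and 18.8% lower. Rpl4 encodes uL4, which narrows the tunnel with a long loop. It was at 1381, 1464, 1290.5 and 1299.9 FPKM in Wnk1f/f and 1220.2, 1124, 1187, 1288 and 1229 in Wnk1d/d. The ranges were separate by a few FPKM, with a log2 fold change of -0.17 (SE 0.09, adjusted p = 0.207). Rpl39, a very small tunnel protein, had -0.12 (SE 0.12).

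Other large subunit proteins differed little. Rpl3 (uL3) and Rpl10 (uL16) lie near the catalytic centre, and Rpl22 binds RNA at the subunit's surface. Rpl10 was at 32.2 ± 2.81 FPKM (SD, n = 4) against 31.2 ± 2.87 (SD, n = 5). Rpl22 had a log2 fold change of -0.21 (SE 0.08, adjusted p = 0.0807), with 192, 202, 187 and 174 FPKM in Wnk1f/f and 174, 148, 155, 176 and 166 in Wnk1d/d. Only Wnk1f/f 4 lay within the Wnk1d/d range.

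Rpl30 had a value that stood apart in Wnk1f/f 2, and Rpl3 had one in both libraries numbered 2. Rpl30, whose product can repress the splicing of its own transcript in yeast, was at 14.1, 53.7, 12.8 and 11.7 FPKM in Wnk1f/f and 10.9, 9.88, 15.03, 15.7 and 13.8 in Wnk1d/d. Without Wnk1f/f 2 its log2 fold change, the lowest of all members at -0.50 (SE 0.40, adjusted p = 0.378), came to 0.00. Rpl3 was at 38.2, 63.0, 39.5 and 39.3 FPKM against 36.6, 53.8, 32.2, 35.8 and 35.7. Both libraries numbered 2 were high for Rpl3, although Wnk1d/d 2 was the lowest library for 62 of the other members. The log2 fold change of Rpl3 was -0.20 (SE 0.18), and -0.32 to -0.03 with 1 library left out. In the libraries not numbered 2, a choice made after the values were seen, every Wnk1d/d value of Rpl3 was below every control.

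In the small subunit, Rps13 and Rps7 were lower in Wnk1d/d. Rps13 encodes uS15, one of the first proteins to bind the central part of the small subunit RNA. It was at 93.2, 88.9, 92.0 and 69.5 FPKM in Wnk1f/f and at 72.6, 57.9, 65.2, 73.1 and 67.4 in Wnk1d/d. The controls stood above all Wnk1d/d libraries except Wnk1f/f 4, which lay among them. Mean FPKM was 85.9 ± 11.1 (SD, n = 4) against 67.2 ± 6.22 (SD, n = 5), with a log2 fold change of -0.34 (SE 0.10, limma adjusted p = 0.0429). Of the 9 fits with 1 library left out, only that without Wnk1f/f 4 kept the call, and in the other 8 the adjusted p was 0.0535 to 0.104.

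Rps7 encodes eS7, a protein of the small subunit's body that is also needed for processing of its ribosomal RNA. It was at 37.7, 41.5, 41.7 and 35.9 FPKM in Wnk1f/f and 33.3, 28.9, 35.4, 34.2 and 31.97 in Wnk1d/d. The groups did not overlap, though Wnk1f/f 4 and Wnk1d/d 3 were close. The means were 39.2 ± 2.85 (SD, n = 4) and 32.8 ± 2.49 (SD, n = 5), a log2 fold change of -0.25 (SE 0.08, limma adjusted p = 0.0411). The call held without Wnk1f/f 4 and without Wnk1d/d 2, and in the other 7 fits with 1 library left out the adjusted p was 0.0519 to 0.0929.

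Proteins of the head, the part of the small subunit that swivels as the mRNA moves, had a log2 fold change below 0 for 13 of 14 genes. Their median of -0.16 was that of the whole family, in which 89.7% of genes were below 0. By limma 0 passed, where 11.1% of all genes were called higher and 11% lower. At an unadjusted p under 0.05, 3 were lower, a share near the 18.8% of all genes. Rps15, of the head, was at 1962, 2251, 1775 and 1698 FPKM in Wnk1f/f and 1629, 1510.5, 1705, 1844 and 1751 in Wnk1d/d. The groups overlapped, and the adjusted p was 0.293. Outside the head, Rps6, the subunit's main phosphorylated protein and a target of S6 kinase, was at 299, 309, 255 and 247 FPKM against 242, 214, 236, 254 and 240.4, a log2 fold change of -0.22 (SE 0.09, adjusted p = 0.104). Rpsa, also known as the laminin receptor, had -0.07 (SE 0.15).

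The paralogs Rps4l and Rps27l had log2 fold changes of opposite sign to those of Rps4x and Rps27. Rps4l is a copy-like relative of Rps4x, the X-linked gene for eS4. GENCODE M21 places Rps4l at chr6:148354656-148355598 on the plus strand and calls it a transcribed processed pseudogene, whereas Rps4x lies at chrX:102184941-102189394 on the minus strand with 7 exons. Over 783 aligned bases of the Rps4x coding sequence the 2 were 79.95% identical, with 157 mismatches and 0 gaps, and the longest identical stretch was 35 bases. A stretch of 60 bases, from 475 to 534 of the Rps4x coding sequence, is printed from GENCODE M21 transcripts to show how far apart the 2 genes are, with the 20 differing bases in capitals. These are the 60 bases with the most differences, and are less alike than the alignment as a whole.
Rps4x: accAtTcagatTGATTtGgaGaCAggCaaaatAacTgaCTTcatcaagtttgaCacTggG
Rps4l: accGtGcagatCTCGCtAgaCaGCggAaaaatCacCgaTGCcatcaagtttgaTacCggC
Rps4l was at 14.0, 26.9, 19.1 and 12.4 FPKM in Wnk1f/f and 38.0, 27.5, 36.6, 31.9 and 23.1 in Wnk1d/d. The Wnk1f/f libraries were the lower ones except Wnk1f/f 2, which lay above Wnk1d/d 5. The means were 18.1 ± 6.51 (SD, n = 4) and 31.4 ± 6.23 (SD, n = 5), a ratio of 1.74 and a log2 fold change of 0.80 (SE 0.22, limma adjusted p = 0.0315). The call was lost without Wnk1f/f 1, Wnk1f/f 4, Wnk1d/d 1, Wnk1d/d 3 or Wnk1d/d 4 (adjusted p 0.0607 to 0.0835). Rps4x, at a mean of 332 FPKM, was at 349, 401, 372 and 341 FPKM against 336, 269, 304, 307 and 305. Its groups did not overlap, and the log2 fold change was -0.27 (SE 0.08, adjusted p = 0.0506).

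Rps27l, a close relative of Rps27 that is known as a p53 target, was at 144, 140.0, 134 and 104 FPKM in Wnk1f/f and 184, 133, 178, 189 and 165 in Wnk1d/d. The Wnk1d/d libraries were above all controls except Wnk1d/d 2. The log2 fold change was 0.38 (SE 0.13, limma adjusted p = 0.0622), and without Wnk1d/d 2 it was 0.46 (adjusted p = 0.0162). Rps27 itself was at 112, 135, 90.5 and 107 FPKM against 96.9, 71.6, 90.8, 101 and 86.8, a log2 fold change of -0.30 (SE 0.13, adjusted p = 0.118). The values of Rps27 overlapped between the groups. Rps27a, a fusion of ubiquitin with eS31, had -0.20 (SE 0.12).

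**Figure D4:**
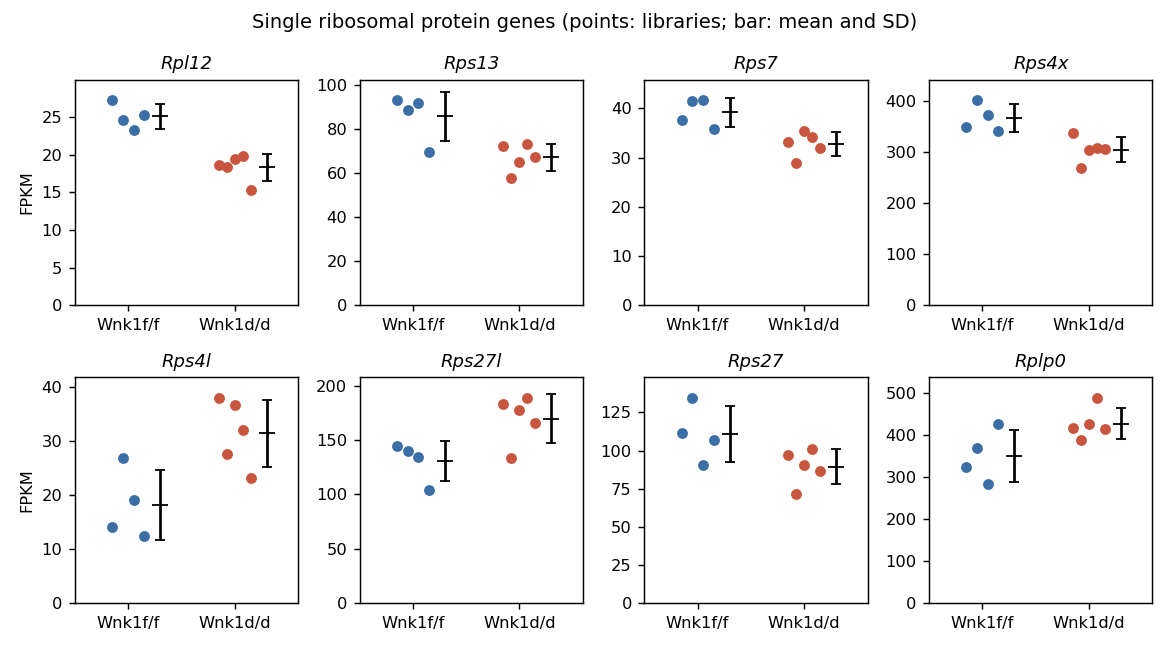
FPKM in each library (points, Wnk1f/f in blue and Wnk1d/d in red) with the group mean and SD (black) for 8 ribosomal protein genes, each on an axis that starts at 0. Rpl12, Rps7 and Rps4x have no overlap between the groups, and Rps4l and Rps27l sit higher in Wnk1d/d with 1 library crossing over in each.

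The 3 paralogs that did not pass the level limit had low values. Rpl10l, a testis retrogene of Rpl10, was listed at 0 in all 9 libraries. Rpl3l, a striated muscle form of Rpl3, was at 0.19 to 0.54 FPKM. Rpl39l was at 0 to 0.28 FPKM except in Wnk1d/d 5, where it was at 2.24. The lowest member inside the limit, Rpl34, had a mean of 7.16 FPKM, and these 3 had means of 0, 0.338 and 0.342.

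Ribosomal protein genes and relatives with other kinds of symbols were read beside the members, and 0 of 5 passed by limma (2 were at an unadjusted p under 0.05, both higher). Rpl7l1 was at 44.1 ± 2.83 against 53.5 ± 5.54 FPKM (SD, n = 4 and 5), a log2 fold change of 0.27 (SE 0.09, adjusted p = 0.0509). Rpl36al had 0.26 (SE 0.11), Rpl22l1 -0.01 (SE 0.15), and Fau, which encodes a ubiquitin-like protein fused to eS30, -0.21 (SE 0.14).

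Elongation factors and other TOP mRNAs lay on the same side as the ribosomal protein genes. Of 16 such genes, 15 had a log2 fold change below 0, with a median of -0.12. Among them 2 were called lower, a share near the 11% of all genes, and 0 higher. Eef2, which moves the ribosome along the mRNA, was at 1328, 1309.6, 1231 and 1377 FPKM in Wnk1f/f and 958, 1206, 909, 1018 and 1039 in Wnk1d/d. The groups did not overlap, with a log2 fold change of -0.36 (SE 0.11, limma adjusted p = 0.0384). Eif4b, a helper of the helicase that unwinds mRNA leaders, was at 237, 229, 214 and 233 FPKM against 179, 191, 147, 181 and 176 (log2 fold change -0.39, SE 0.08, adjusted p = 0.0136). Wnk1d/d 2, the lowest library for most ribosomal protein genes, was the highest Wnk1d/d library for both.

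Genes that build ribosomes lay on the other side. Of 30 assembly factors, 28 had a log2 fold change above 0, with a median of 0.32. The test called 13 higher (43.3%, against 11.1% of all genes) and 0 lower (against 11%). Bysl, which matures the small subunit, was at 6.30, 6.33, 6.75 and 5.45 FPKM in Wnk1f/f and 10.4, 8.92, 15.9, 13.3 and 12.6 in Wnk1d/d, with a log2 fold change of 0.86 (SE 0.14, limma adjusted p = 0.00621). Bop1, which processes large subunit RNA, rose from 20.9 ± 1.32 to 33.8 ± 5.23 FPKM (SD, n = 4 and 5, adjusted p = 0.00562), and Rrp12 and Nhp2 had log2 fold changes of 0.57 (SE 0.16) and 0.53 (SE 0.15), both past the test. The count was 5 to 8 without Wnk1f/f 2, 3 or 4 or Wnk1d/d 1, 3, 4 or 5. In those fits the calls over all genes, both directions together, also fell, from 3249 to between 1739 and 2763. Of 15 genes of RNA polymerase I, which transcribes ribosomal RNA, 2 were higher (Rrn3 at 0.25, SE 0.07, and Cd3eap at 0.22, SE 0.07) and 0 lower, with a median of 0.05. This share was near the 11.1% of all genes called higher.

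Mitochondrial ribosomal proteins, encoded in the nucleus for the ribosome of another compartment, also lay above 0. Of 76 genes, 71 had a log2 fold change above 0, with a median of 0.20. Among them 21 were called higher (27.6%, against 11.1% of all genes) and 0 lower (against 11%). Mrpl20 was at 76.3, 80.5, 76.8 and 59.1 FPKM in Wnk1f/f and 117, 81.2, 133, 134 and 123 in Wnk1d/d (log2 fold change 0.67, SE 0.16, limma adjusted p = 0.0174). Every Wnk1d/d library was above every control, with Wnk1d/d 2 only just so. Mrpl54, Mrps28 and Mrpl17 had 0.55 (SE 0.11), 0.52 (SE 0.16) and 0.48 (SE 0.11), all past the test. The count was 33 without Wnk1d/d 2 and 5 to 10 when any other library except Wnk1f/f 2 was left out. Calls over all genes in those fits were 4216 and 1739 to 2763, against 3249 with no library left out.

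Of 35 initiation factors, 27 had a log2 fold change above 0, with a median of 0.17. Called higher were 6 (17.1%, against 11.1% of all genes), and 1 was lower (Eif4b, 2.86%, against 11% of all genes). Of the 8 below 0, Eif3e, Eif3f, Eif3h and Eif4b are also among the TOP genes. The largest increases were Eif3b at 0.43 (SE 0.13), Eif1a at 0.41 (SE 0.08), Eif2s1 at 0.40 (SE 0.09) and Eif4g1, the scaffold of the cap-binding complex, at 0.40 (SE 0.07). The count of higher genes was 2 or 3 without Wnk1f/f 1 or 4 or Wnk1d/d 1, 3, 4 or 5, and 12 without Wnk1d/d 2. Calls over all genes in those fits were 1739 to 2424 and 4216, against 3249 with no library left out. A further list held genes with Rps6k, Larp or Eif4ebp symbols, not all of which encode kinases of ribosomal proteins or regulators of TOP mRNAs. Of 13 that could be tested, 3 were higher (23.1%, against 11.1% of all genes) and 1 lower (7.69%, against 11%). The median log2 fold change was 0.04. Larp1b, a relative of the TOP-binding protein LARP1, was at 8.50, 7.51, 8.92 and 7.34 FPKM against 13.2, 11.8, 13.8, 14.4 and 14.8 (log2 fold change 0.69, SE 0.08, limma adjusted p = 0.00227). Rps6ka4 and Larp4 had 0.41 (SE 0.07) and 0.33 (SE 0.08), and Rps6ka5, whose product MSK1 phosphorylates chromatin proteins, had -0.47 (SE 0.11), all past the test.

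**Figure D5:**
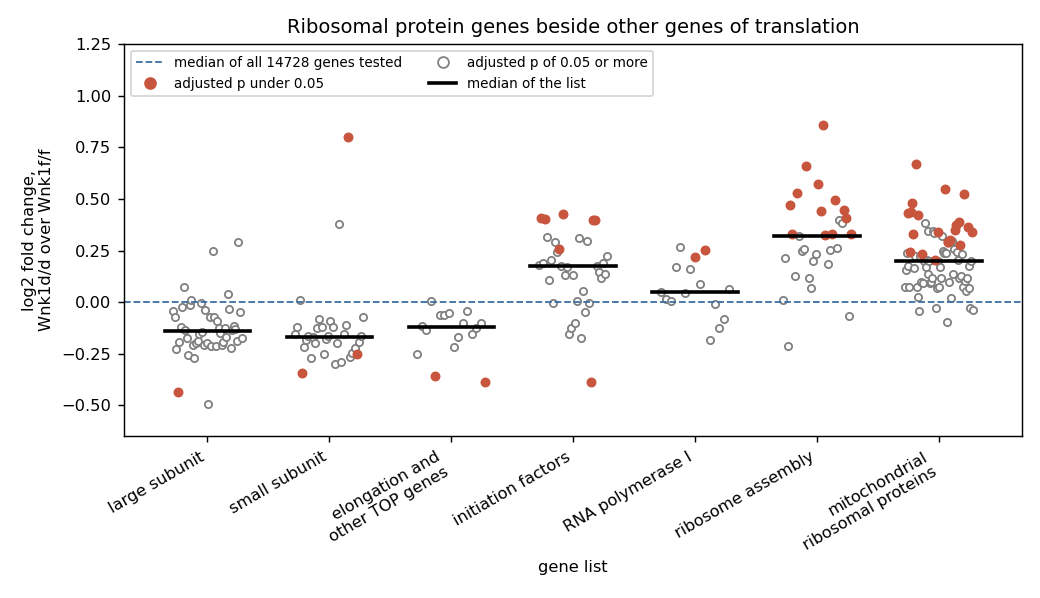
Log2 fold change of each gene, Wnk1d/d over Wnk1f/f, in the 2 ribosomal subunits and 5 other lists of translation genes, with filled red points for an adjusted p under 0.05, open points otherwise, a black bar at each list's median and a dashed line at the median of all genes tested (0.003). The subunits and the TOP genes lie mostly below the dashed line, and the assembly factors and mitochondrial ribosomal proteins lie mostly above it.

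Most ribosomal protein mRNAs are short, and other short transcripts were read beside them. For 706 genes outside the family with transcripts under 800 bases, the median log2 deviation was -0.07, 0.05, -0.10 and -0.28 in Wnk1f/f 1 to 4 and 0.06, -0.11, 0.06, 0.18 and 0.06 in Wnk1d/d 1 to 5. These genes were higher on average in Wnk1d/d (0.05 ± 0.10, SD, n = 5) than in Wnk1f/f (-0.10 ± 0.14, SD, n = 4), and the groups overlapped. The part of transcript length in the members' values was not tested. Over the members, Spearman's rho between coding length (not transcript length) and log2 fold change was 0.06 (n = 77). Between mean FPKM and log2 fold change it was 0.03 (n = 78). Mitochondrial ribosomal protein genes had median deviations of -0.06, 0.006, -0.10 and -0.29 in Wnk1f/f 1 to 4. In Wnk1d/d 1 to 5 they were 0.12, -0.11, 0.15, 0.23 and 0.09. In every library these lay on the same side of 0 as the short genes, and the part of transcript length in them was not tested.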

How the data were processed

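Uterine RNA of 9 mice was sequenced by the study with paired-end reads. Per the submitters' processing notes, the authors aligned reads to mm10 with TopHat2 2.0.4 and computed FPKM with Cufflinks 2.0.2 (the study's methods give another Cufflinks version), and the deposited table holds FPKM per gene for each library, with no pooling and 0 columns of other samples. The gene annotation is not given in the sources used here, and neither is the depth. How reads that fit several places were handled is also not given there, which bears on genes with near-identical copies. The study calls the controls littermates, without saying which of these mice shared a litter.

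The deposited FPKM were turned into log2(FPKM + 1). The test, limma 3.58.1 (R 4.3.3; eBayes with trend, genotype as the only term), covered genes whose mean exceeded 1 FPKM in either genotype, with Benjamini-Hochberg adjustment over 14728 genes and a threshold of 0.05. The study's Cuffdiff needs reads and was not run. For single genes, group means were compared over all 126 assignments of libraries to genotypes by an exact permutation test, two-sided (SciPy 1.17.1, NumPy 2.4.6, pandas 2.3.3, Python 3.11.15), and plots were drawn with matplotlib 3.10.9. The limma step was tested on simulated data. Positions and copies came from GENCODE M21 (blastn, copies at 95% identity or more over 90% of the coding sequence, transcribed strand), matched by symbol.

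The members, lists and tests were chosen with earlier results of these data known. Named genes were those past the threshold, the 3 highest and 3 lowest of each subunit, the 3 largest changes each way, preset genes of known roles, up to 4 called genes for each other list, members with 1 library standing apart, and Wnk1. Alternatives were other pseudocounts, filters, scalings, variance models, library weights, a replicate block, other fold criteria and leaving out each library. Leaving out both libraries numbered 2 was added after seeing the data. Results for some genes are not reported here.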

Additional observations from a re-analysis of the deposited data

Results flagged for a closer look

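In 7 of 158 groups of values (4.43%; the 78 ribosomal protein genes and Wnk1 in each genotype), the highest or lowest library stood apart from the others by Dixon's criterion, which chance meets in about 1 in 20 groups. All 3 in Wnk1f/f came from Wnk1f/f 2: Rpl30 at 53.7 FPKM where the other controls were 11.7 to 14.1, Rpl3 at 63.0 where they were 38.2 to 39.5, and Rpl29 at 85.3 where they were 75.9 to 77.4. Of the 4 in Wnk1d/d, 3 came from Wnk1d/d 2: Rpl19 at 98.6 FPKM where the others were 108.8 to 112.7, Rpl27 at 58.7 where they were 68.6 to 71.5, and Rpl3 at 53.8 where they were 32.2 to 36.6. The last was Rpl6 in Wnk1d/d 4, at 92.35 FPKM where the others were 84.2 to 86.2.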

How the results depend on the processing

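Members called higher numbered 4 after centring on the member genes, 3 with library weights, 0 with the replicate block, 2 with both libraries numbered 2 left out and 0 to 2 with 1 library left out. Members called lower numbered 1 with median scaling, 40 with quantile normalization, 0 after centring, 8 with weights and 0 with the block. They numbered 1 with both libraries numbered 2 left out and 1 to 4 with 1 left out. Calls over all genes, both directions together, numbered 3249 in the main fit, 3169 with median scaling, 3311 with quantile normalization and 2746 after centring. They numbered 4230 with weights, 220 with the block, 3767 with both libraries numbered 2 left out and 1739 to 4216 with 1 left out. Members past the threshold with the fold step numbered 3 at 1.2-fold, 0 at 2-fold, 0 with the block and 0 to 1 with 1 library left out. The large subunit median was -0.24 with quantile normalization, 0.018 after centring and -0.19 to -0.07 with 1 library left out, and the small subunit median was -0.30 with quantile normalization, -0.0088 after centring (both set near 0 by construction) and -0.22 to -0.12 with 1 left out. The genotype difference of the large minus small subunit level was -0.0096 with quantile normalization, -0.073 with either pseudocount, -0.071 with median scaling, -0.046 with both libraries numbered 2 left out and -0.11 to -0.02 with 1 left out, and the filters, variance models, weights, block and centring do not enter it.

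Higher assembly factors numbered 24 after centring, 0 with the block and 5 to 19 with 1 library left out. Higher mitochondrial ribosomal proteins numbered 47, 0, 34 with both libraries numbered 2 left out and 5 to 33, and higher initiation factors 16, 0, 14 and 2 to 12. Wnk1 had an adjusted p of 0.0746 after centring (log2 fold change -0.36) and 0.0518 with the block (-0.52), and -0.55 to -0.50 with 1 library left out. The causes were not tested. For single members, 584 of the values under alternatives kept direction and side of the threshold, 32 lost it, 24 gained it and 32 that did not pass changed sign. Rpl12 passed in 19 of 21 alternatives, Rps4l in 15, Rps7 in 10 and Rps13 in 8.

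Replicate numbers are shared by the genotypes, but belong to different mice. Deviations of same-numbered libraries correlated at -0.09, -0.003, 0.02 and -0.27 for replicates 1 to 4, and 0 of 8 libraries correlated best with their own number, so the numbers do not pair the mice. The block, which leaves Wnk1d/d 5 without a partner, called 220 of 14728 genes in place of 3249. FPKM without counts limits what can be said of low members.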
